A study of Mus musculus with 6 samples.

Results

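Oxidative phosphorylation genes encode the subunits of the respiratory chain and of the ATP synthase. They were taken as all gene symbols of the nuclear Nduf, Sdh, Uqcr, Cyc1, Cox4 to Cox8 and Atp5 series together with the 13 protein-coding genes of mitochondrial DNA, and symbols of pseudogenes were left out. The rule found 98 of the 35869 genes listed, 85 encoded in the nucleus and 13 in the mitochondria. Of these, 92 reached at least 1 TPM (a transcript abundance corrected for transcript length and scaled so that all libraries have nearly the same total) in at least 3 of the 6 libraries and were tested, 79 nuclear and 13 mitochondrial. The 6 that did not pass were Cox4i2, Cox6b2, Cox7b2, Cox8b and Cox8c, which are isoforms of cytochrome c oxidase subunits, and Ndufa4l2.

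The cells were mouse acute myeloid leukaemia cells transformed by retroviral MLL-AF9, an oncogene fused from 2 genes, and grown with the cytokines SCF, IL6 and IL3. All of them carried floxed Chaf1b alleles, Chaf1b being a subunit gene of the histone chaperone CAF-1, and the recombinase CreERT2, which an oestrogen receptor ligand activates. The 3 KO libraries came from cells given B-estradiol for 48 hours and the 3 WT libraries from cells given ethanol vehicle, so WT cells were floxed too and had no ligand, and the deletion and the ligand cannot be told apart. Poly(A) RNA was sequenced. The labels call the cells clones without saying which clone or culture gave each library, so the p-values reflect only differences among these libraries, and those may be technical. Chaf1b averaged 15.4 ± 1.97 TPM in KO libraries and 49.4 ± 1.06 TPM in WT libraries (SD, n = 3 each), 31.2% of the WT mean (exact two-sided permutation p = 0.1, the smallest that 3 against 3 libraries allow). The 8 myeloid leukaemia markers examined, among them Ptprc, Kit, Itgam and Hoxa9, were at 1 TPM or more in every library. They were not all level between the groups. Mpo, the myeloperoxidase of granulocyte precursors, was at 1017.6, 2311.4 and 2232.8 TPM in KO, against 19.4, 127.6 and 83.8 TPM in WT, and was called higher, as was Cebpa, a myeloid transcription factor, while Hoxa9 was called lower (limma adjusted p = 0.015, 0.042 and 0.029). The 11 markers of erythroid, lymphoid, endothelial and stromal cells summed to 80, 90.4 and 84.8 TPM in KO and 94.4, 71.3 and 72 TPM in WT, mostly from Pecam1. Of the 6 that were tested, 3 were called higher and none lower, against 12.9% of all tested genes called higher. These were Klf1, Col1a1 and Cd79a (limma adjusted p = 0.016, 0.018 and 0.0452), each at or under 5.1 TPM in every library.

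The respiratory chain passes electrons from NADH and succinate through complexes I to IV to oxygen and pumps protons across the inner mitochondrial membrane, and complex V, the ATP synthase, uses the returning protons to make ATP. Complexes I, III, IV and V are mosaics: the membrane-embedded cores of these 4 hold proteins translated inside the mitochondria from mitochondrial mRNA, while their other subunits, and the whole of complex II, are encoded in the nucleus and imported. Mitochondrial DNA is transcribed as long polycistronic RNAs that are cut into mRNAs, so the levels of these mRNAs relative to each other depend largely on processing and stability. Most mitochondrial mRNAs of mammals carry a short poly(A) tail, which lets poly(A) selection recover them.

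With all 6 libraries, the 2 genomes differed in the sign of their fold changes. All 13 mitochondrially encoded mRNAs had a positive log2 fold change of KO over WT, yet none was called at an adjusted p under 0.05 (limma; 1 had an unadjusted p under 0.05). Of the 79 nuclear members, 72 had a negative log2 fold change; 7 were called lower and none higher, while 30 had an unadjusted p under 0.05 in the lower and 1 in the higher direction. Over all 13575 genes tested, 6.11% were called lower and 12.9% higher, so the 8.86% of nuclear members called lower is near the background. Of the 2054 tested genes that averaged 100 TPM or more, among which 68 of the 79 nuclear members lie, 13.4% were called lower and 6.18% higher. The median log2 fold change was 0.27 over the mitochondrial members, -0.11 over the nuclear members, 0.01 over all tested genes and -0.07 over tested genes of at least 100 TPM. WT replicate 1 was the lowest library for all 13 mitochondrial mRNAs. Without it their median was 0.08 and 11 of the 13 were positive. All fold changes are on the log2(TPM + 1) scale.

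Replicate 1 of each group stood apart from the other libraries of its group. Across all tested genes, which are not independent of each other, log2(TPM + 1) correlated at Pearson's r = 0.998 for KO replicates 2 and 3, 0.991 for KO replicates 1 and 2, 0.998 for WT replicates 2 and 3 and 0.984 for WT replicates 1 and 2. Of the 6 file headers, that of WT replicate 1 alone mentions a replacement. The numbers of mitochondrial and nuclear members called are therefore also given below without WT replicate 1, and without replicate 1 of both groups.

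The mitochondrial mRNAs made up 3.59%, 3.85% and 3.94% of all TPM in KO replicates 1, 2 and 3, against 2.37%, 3.64% and 3.59% in WT replicates 1, 2 and 3. KO replicate 1 lay level with WT replicates 2 and 3, KO replicates 2 and 3 were higher, and WT replicate 1 was far below every other library. Summed over the 13 mRNAs, KO averaged 37942 ± 1790 TPM and WT 32017 ± 7178 TPM (SD, n = 3 each), a ratio of 1.19; the ratio to the mean of WT replicates 2 and 3 alone was 1.05. WT replicate 1 held 0.656 times that mean. It was the lowest of the 6 libraries for 13 of 13 mitochondrial mRNAs, and for 9 of the 79 tested nuclear members.

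**Figure D1:**
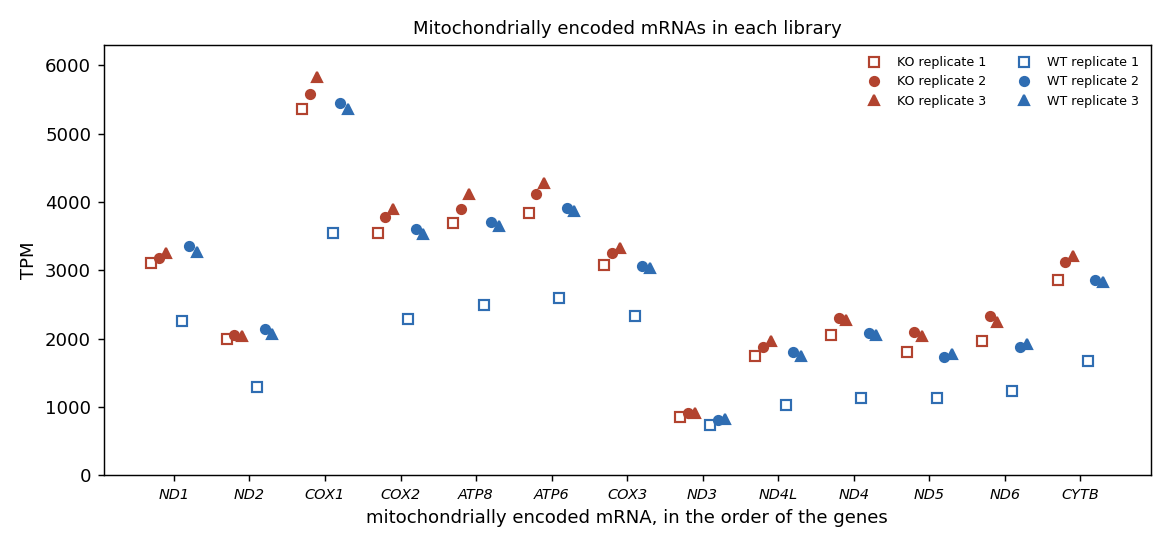
TPM (linear axis from 0) of the 13 mitochondrially encoded mRNAs in KO libraries (red, left of each pair) and WT libraries (blue, right), with replicate 1 of each group as an open square. WT replicate 1 is the lowest library for every gene, at 1288.4 TPM for ND2 against 2146.1 and 2069.6 TPM in WT replicates 2 and 3, and ND3 shows the smallest gap.

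Among the mitochondrial subunits of complex I, which form the proton-pumping arm of the enzyme, ND3, ND5 and ND6 were apart between the groups. ND5 was at 1803.0, 2095.7 and 2044.6 TPM in KO replicates 1 to 3, against 1129.4, 1733.1 and 1776.7 TPM in WT replicates 1 to 3. ND6 was at 1970.6, 2328.6 and 2238.9 TPM in KO, against 1232.4, 1871.6 and 1919.2 TPM in WT. ND3, the smallest in level, was at 854.4, 916.2 and 912.1 TPM in KO, against 741.2, 809.5 and 829.8 TPM in WT. For these 3 genes every KO library was above every WT library, as for 23.4% of all tested genes. Their log2 fold changes were 0.38 (SE 0.18, limma adjusted p = 0.17) for ND5, 0.40 (SE 0.18, adjusted p = 0.15) for ND6 and 0.17 (SE 0.06, adjusted p = 0.076) for ND3.

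ND1 and ND2 behaved otherwise. ND1 was at 3111.2, 3187.0 and 3255.4 TPM in KO, against 2253.0, 3356.8 and 3268.6 TPM in WT. ND2 was at 1992.7, 2047.2 and 2042.1 TPM in KO, against 1288.4, 2146.1 and 2069.6 TPM in WT. In both genes all KO values lay below WT replicates 2 and 3 and above WT replicate 1. Their log2 fold changes, 0.13 (95% interval -0.24 to 0.49) and 0.18 (-0.28 to 0.64), turned to -0.06 each without WT replicate 1. ND4 and ND4L, which share a bicistronic mRNA, averaged 2211 ± 132 and 1867 ± 106 TPM in KO and 1757 ± 541 and 1526 ± 436 TPM in WT (SD, n = 3 each). Neither was called (limma adjusted p = 0.28 and 0.30).

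The other mitochondrial mRNAs encode membrane subunits of complexes III, IV and V. CYTB, the cytochrome b of complex III, averaged 3064 ± 180 TPM in KO and 2455 ± 673 TPM in WT (SD, n = 3 each; log2 fold change 0.36, limma adjusted p = 0.25). COX1, which holds the oxygen-reducing site of complex IV and was the most abundant member, was at 5357.8, 5575.0 and 5823.7 TPM in KO, against 3538.1, 5444.1 and 5360.9 TPM in WT (log2 fold change 0.25, adjusted p = 0.31). COX2, the subunit that takes electrons from cytochrome c, averaged 3745 ± 177 TPM in KO and 3140 ± 743 TPM in WT (adjusted p = 0.28). COX3 was at 3081.7, 3256.6 and 3328.2 TPM in KO, against 2336.9, 3057.3 and 3032.8 TPM in WT (adjusted p = 0.21). It was the fourth mitochondrial mRNA without overlap of the groups. ATP8 and ATP6, membrane subunits of the ATP synthase, averaged 3898 ± 207 and 4081 ± 221 TPM in KO and 3283 ± 679 and 3458 ± 747 TPM in WT (adjusted p = 0.25 and 0.28).

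Several of these genes overlap on mitochondrial DNA over short stretches, so neighbouring values may not be fully independent. The size of any such effect was not tested. The shared stretches (mm10 mitochondrial chromosome, plus strand, from GENCODE M21 transcripts) are shown because reads within them can fall in both genes; ATP6 and COX3 also share 1 base, at 8607; capitals mark the start codon of the downstream gene and the stop codon of the upstream gene, and for ND5 and ND6 the stop codon of ND5 alone.

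ATP8 and ATP6, 7927 to 7969: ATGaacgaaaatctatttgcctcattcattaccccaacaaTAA

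ND4L and ND4, 10167 to 10173: ATGcTAA

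ND5 and ND6, 13552 to 13565: ttaatctcgagTAA

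ND6 is the only one of the 13 on the minus strand, and the strand setting of the read counting is not stated in the labels or processing notes. Without strand, reads of ND6 and of a transcript running on past ND5 cannot be told apart, so the ND6 level is uncertain. It was close to that of ND5 in each library.

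The mitochondrial mRNAs were not all equally low in WT replicate 1. Relative to the mean of WT replicates 2 and 3 its level was 0.547 for ND4, 0.576 for ND4L and 0.59 for CYTB, and 0.904 for ND3 and 0.767 for COX3, with a median of 0.65 over the 13. The median over the 79 nuclear members was 0.962, from 0.834 for Ndufa4 to 1.61 for Cox7a1. In KO replicates 1, 2 and 3 the same median was 0.996, 1.06 and 1.10 for mitochondrial mRNAs and 0.946, 0.889 and 0.92 for nuclear members. KO replicate 1 was the lowest of the 3 KO libraries for 13 of 13 mitochondrial mRNAs and the highest of them for 61 of 79 nuclear members. For 69 of the 79 nuclear members it lay between the mean of KO replicates 2 and 3 and that of WT replicates 2 and 3.

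**Figure D2:**
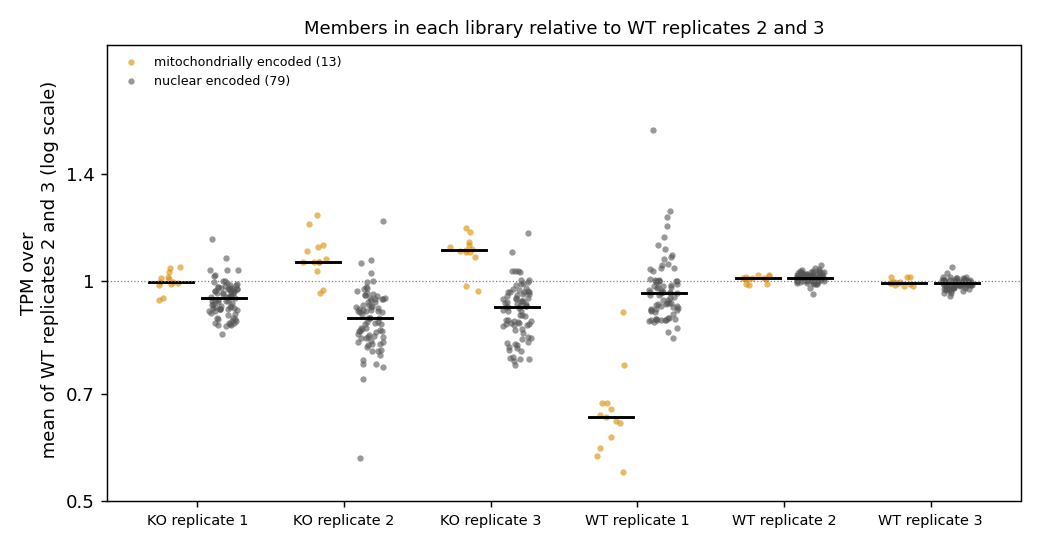
TPM of each tested member divided by its mean in WT replicates 2 and 3 (log axis), by library, for the 13 mitochondrial (orange) and 79 nuclear (grey) members; black lines are medians. The orange points of WT replicate 1 lie apart at a median of 0.65, and in KO replicates 2 and 3 orange medians (1.06 and 1.10) stand above 1 while grey medians (0.889 and 0.92) stand below. WT replicates 2 and 3 sit near 1 because they set the scale.

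Some other genes also set WT replicate 1 apart. Late granulocyte markers (11 genes, among them Ly6g, Ngp and S100a8; 7 of the 11 at 1 TPM or more in every library, none at 0 in all) summed to 686, 1547 and 1380 TPM in KO replicates 1 to 3, against 489, 119 and 151 TPM in WT replicates 1 to 3. With all 6 libraries the members of the list were not called alike. S100a8, S100a9, Camp, Cd177 and Lcn2 were called higher in KO and did not overlap between the groups. Of all tested genes, 12.9% were called higher and 23.4% had every KO library above every WT library. S100a8 in WT replicate 1 was 1.18 times the mean of WT replicates 2 and 3. Ly6g, Mmp9, Ngp and Mmp8 were highest in WT replicate 1, above every KO library. Ly6g, Mmp9 and Ngp were not called and Mmp8 was not tested. Cxcr2, at 8.4, 23.8 and 19.6 TPM in KO against 21.4, 0.5 and 0.4 TPM in WT, was not called either. Without WT replicate 1, all 9 tested genes of the list were called higher, against 21.6% of all tested genes. Without replicate 1 of both groups it was again all 9, against 28.4%. Ly6g, a surface marker of neutrophils, was at 13.8, 26.4 and 21.8 TPM in KO, against 62.0, 1.9 and 3.0 TPM in WT. Lrpprc, which encodes a protein that stabilises mitochondrial mRNAs, was at 59.0, 56.5 and 55.9 TPM in KO, against 51.9, 71.7 and 67.9 TPM in WT; it was picked after its values were seen. The part of these in the low mitochondrial mRNAs of WT replicate 1 was not tested. In bulk RNA, fewer cells of a type and less RNA per cell cannot be told apart.

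Without WT replicate 1, none of the 13 mitochondrial mRNAs was called (2 had an unadjusted p under 0.05, both higher), where 21.6% of all tested genes and 13.6% of those of 100 TPM or more were called higher. Their median log2 fold change was then 0.08, and 11 of the 13 were positive. Without replicate 1 of both groups, 9 of 13 were called higher and none lower, where 28.4% of all tested genes and 20.8% of those of 100 TPM or more were called higher. The 9 were ND3, ND4, ND5, ND6, CYTB, COX2, COX3, ATP6 and ATP8, with log2 fold changes from 0.11 for COX2 to 0.27 for ND6 (limma adjusted p = 0.036 and 0.0051). ND4L (0.11, adjusted p = 0.0523) and COX1 (0.08, adjusted p = 0.11) were not called, and ND1 and ND2 were at -0.04 each. This fit has 2 libraries a group, and the 2 left out are those that stood apart.

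Within the nuclear genome, complex I, the complex with the most genes, held 5 of the 7 calls. Of its 35 tested members, 14.3% were called lower, near the 13.4% of tested genes of 100 TPM or more, and none higher, with a median log2 fold change of -0.13. All 5 are structural subunits. Ndufb7, an accessory subunit of the membrane arm, was at 624.0, 570.5 and 606.2 TPM in KO, against 721.2, 710.9 and 680.9 TPM in WT (log2 fold change -0.23, SE 0.05, limma adjusted p = 0.028). Ndufb8, another accessory subunit of the membrane arm, was at 153.7, 134.5 and 135.6 TPM in KO, against 168.1, 177.7 and 171.6 TPM in WT (-0.29, SE 0.06, adjusted p = 0.032). Neither gene had overlapping groups, and in both KO replicate 1 was the KO library nearest to WT.

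Of the other 3 called members of complex I, Ndufs3 and Ndufs7 belong to the peripheral arm, which carries electrons from NADH to ubiquinone. Ndufs3, a core subunit, was at 232.7, 214.9 and 212.6 TPM in KO, against 255.0, 254.5 and 257.0 TPM in WT (log2 fold change -0.22, SE 0.05, limma adjusted p = 0.032). Ndufs7, the core subunit that holds the last iron-sulfur cluster before ubiquinone, was at 130.1, 118.7 and 125.4 TPM in KO, against 138.5, 149.8 and 143.2 TPM in WT (-0.20, SE 0.05, adjusted p = 0.0479). Ndufs5, an accessory subunit on the outer side of the membrane arm, was at 303.2, 282.9 and 287.6 TPM in KO, against 327.7, 338.8 and 324.7 TPM in WT (-0.18, SE 0.04, adjusted p = 0.039). The groups overlapped in none of the 3. Ndufs8, a core iron-sulfur subunit, missed the threshold at 82.7, 75.3 and 75.2 TPM in KO, against 86.3, 101.1 and 94.8 TPM in WT (-0.27, adjusted p = 0.0512).

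Ndufb3, an accessory subunit of the membrane arm, was 1 of the 7 tested nuclear members with a positive log2 fold change. It was at 226.8, 265.3 and 255.4 TPM in KO, against 213.2, 217.1 and 222.3 TPM in WT. It was the only tested nuclear member with every KO library above every WT library, and was picked after its values were seen. Of all tested genes 23.4%, and 264 of the 2054 of 100 TPM or more, lay apart in that direction. Its log2 fold change of 0.19 (SE 0.07) did not pass the test (limma adjusted p = 0.085). Without replicate 1 of both groups it was 0.24 and called (limma adjusted p = 0.0064). In that fit 28.4% of all tested genes and 20.8% of those of 100 TPM or more were called higher.

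**Figure D3:**
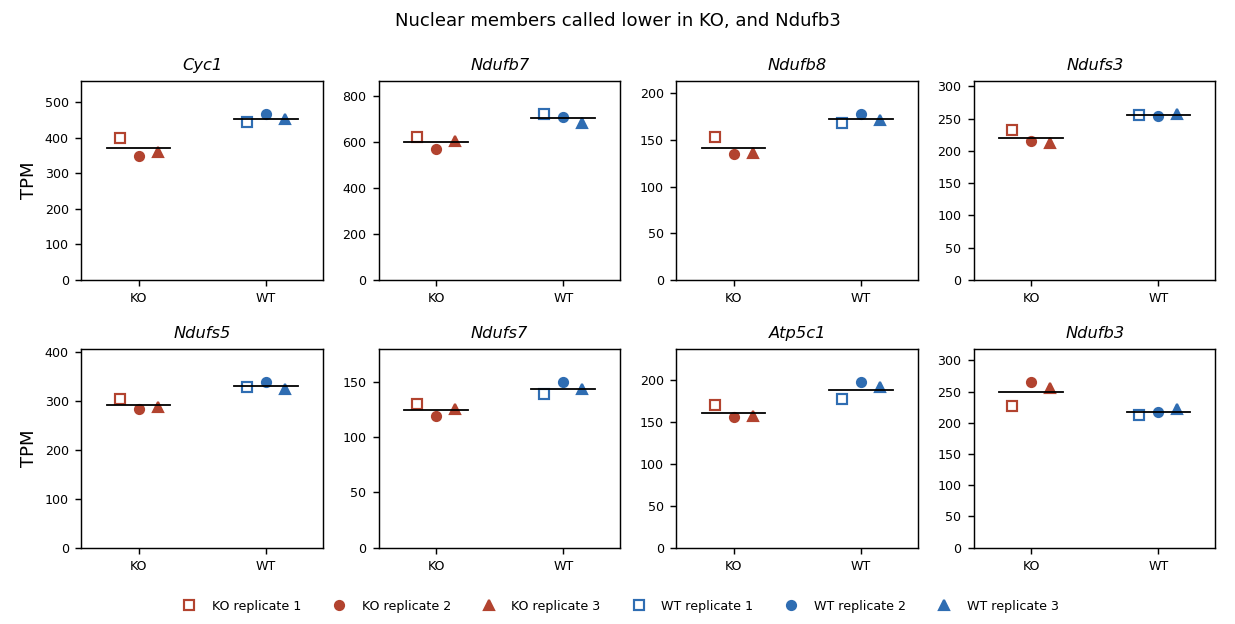
TPM (linear axes from 0) in each library of the 7 nuclear members called lower in KO and of Ndufb3, with KO (red) left of WT (blue), replicate 1 as open squares and group means as lines. Every KO value of the 7 called genes lies under every WT value, and for Ndufb3 every KO value lies over every WT value.

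Complex II, succinate dehydrogenase, is also an enzyme of the tricarboxylic acid cycle and has no mitochondrially encoded subunit. None of its 4 genes was called. Sdha, the flavoprotein that binds succinate, was at 313.9, 293.1 and 288.3 TPM in KO, against 322.5, 359.4 and 357.8 TPM in WT (log2 fold change -0.21, SE 0.06, limma adjusted p = 0.055). Sdhb, the iron-sulfur subunit, was at 122.3, 115.7 and 116.2 TPM in KO, against 116.4, 136.3 and 128.6 TPM in WT (adjusted p = 0.31). The membrane anchors Sdhc and Sdhd averaged 154 ± 4.22 and 492 ± 18.4 TPM in KO and 161 ± 3.73 and 537 ± 22.0 TPM in WT (SD, n = 3 each; adjusted p = 0.32 and 0.12). Without WT replicate 1, Sdha, Sdhb and Sdhd were called lower (limma adjusted p = 0.021, 0.0473 and 0.042). In that fit 14.2% of all tested genes and 28.8% of those of 100 TPM or more were called lower.

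Complex III takes electrons from ubiquinol to cytochrome c. Of its 9 tested nuclear members 1 was called, with a median log2 fold change of -0.08. Cyc1, the cytochrome c1 that passes electrons on to cytochrome c, was at 401.0, 350.3 and 359.8 TPM in KO, against 443.6, 466.9 and 453.3 TPM in WT (-0.30, SE 0.06, limma adjusted p = 0.027, the smallest among the members). The groups did not overlap, and KO replicate 1 was again the KO library nearest to WT. Uqcrfs1, the Rieske iron-sulfur protein, averaged 272 ± 23.1 TPM in KO and 315 ± 3.73 TPM in WT (SD, n = 3 each; -0.22, adjusted p = 0.064). Uqcr11, a small accessory subunit, averaged 565 ± 30.3 TPM in KO and 616 ± 16.5 TPM in WT (-0.13, adjusted p = 0.13).

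Complex IV, cytochrome c oxidase, had none of its 14 tested nuclear members called, and its median log2 fold change of -0.06 was the nearest to 0 of the 5 complexes (1 member, Cox7c, had an unadjusted p under 0.05). Cox7c, a small accessory subunit, was at 597.7, 537.4 and 566.2 TPM in KO, against 629.7, 650.7 and 632.9 TPM in WT (log2 fold change -0.17, SE 0.05, limma adjusted p = 0.057). Cox5b, a zinc-binding subunit, averaged 714 ± 33.8 TPM in KO and 777 ± 33.9 TPM in WT (adjusted p = 0.15). Ndufa4, named for complex I but a subunit of complex IV, averaged 784 ± 17.5 TPM in KO and 803 ± 82.8 TPM in WT (adjusted p = 0.82).

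Several complex IV subunits exist as isoforms, one used in most tissues and another restricted to particular tissues. For the Cox4, Cox6a and Cox6b subunits the widely used form had by far the higher level in all libraries. Cox4i1 averaged 600 ± 5.80 TPM in KO libraries and 630 ± 9.18 TPM in WT (SD, n = 3 each), while Cox4i2, an isoform of lung and of oxygen-sensing cells, was at 0.8, 1.8 and 1.4 TPM in KO and 0.3, 0.0 and 0.3 TPM in WT and was not tested. Cox6a1 averaged 986 ± 19.9 TPM in KO and 1018 ± 12.7 TPM in WT. Cox6a2, the form of heart and skeletal muscle, was at 9.4, 5.3 and 7.4 TPM in KO and 11.5, 9.7 and 8.8 TPM in WT (log2 fold change -0.42, limma adjusted p = 0.17). Cox6b1 averaged 855 ± 15.7 TPM in KO and 870 ± 37.6 TPM in WT, and its testis form Cox6b2 at 0.2, 0.8 and 0.5 TPM in KO and 0.1 TPM in each WT library.

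The Cox7a set was the least one-sided. Cox7a2, the widely used form, averaged 523 ± 10.7 TPM in KO and 506 ± 22.4 TPM in WT (SD, n = 3 each; log2 fold change 0.05, limma adjusted p = 0.48). Cox7a2l, which takes part in joining complexes III and IV into supercomplexes, averaged 235 ± 3.12 TPM in KO and 240 ± 24.4 TPM in WT (-0.03, adjusted p = 0.83). Cox7a1, the form of heart and muscle, was at 20.2, 21.4 and 17.9 TPM in KO, against 35.6, 22.6 and 21.7 TPM in WT (-0.38, adjusted p = 0.20). The WT replicate 1 value of Cox7a1 was 1.61 times the mean of WT replicates 2 and 3, and without that library the log2 fold change was -0.16. Cox7b, a small accessory subunit, lay between 399.1 and 423.7 TPM in KO and between 419.1 and 441.1 TPM in WT. Cox8a, the widely used form of its subunit, averaged 963 ± 34.7 TPM in KO and 1023 ± 16.7 TPM in WT. Cox7b2, Cox8b and Cox8c lay at or under 0.4 TPM in every library. Ndufa4l2, a paralog of Ndufa4 known from hypoxia, lay at or under 0.7 TPM in every library.

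Complex V had 1 of 15 tested nuclear members called, with a median log2 fold change of -0.10. Atp5c1, the gamma subunit whose rotation couples the membrane motor to ATP formation, was at 170.3, 156.3 and 157.7 TPM in KO, against 177.0, 197.9 and 191.3 TPM in WT (-0.22, SE 0.06, limma adjusted p = 0.0499). That call lies at the threshold and was kept under 1, median-of-ratios scaling, of the 10 alternatives with all 6 libraries (adjusted p from 0.041 to 0.15). Atp5d, the delta subunit of the same rotor, averaged 153 ± 16.5 TPM in KO and 188 ± 8.28 TPM in WT (-0.30, adjusted p = 0.0513). The c-ring of the rotor is encoded by 3 genes with one mature protein: Atp5g1 averaged 262 ± 22.1 TPM in KO and 313 ± 21.0 TPM in WT, Atp5g2 712 ± 42.9 and 778 ± 8.47 TPM, and Atp5g3 275 ± 8.23 and 296 ± 15.1 TPM (SD, n = 3 each; adjusted p = 0.068, 0.12 and 0.19). Atp5b, the catalytic beta subunit and the most abundant nuclear member, was at 1654.3, 1496.8 and 1573.0 TPM in KO, against 1628.3, 1783.0 and 1789.7 TPM in WT (-0.14, adjusted p = 0.13).

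**Figure D4:**
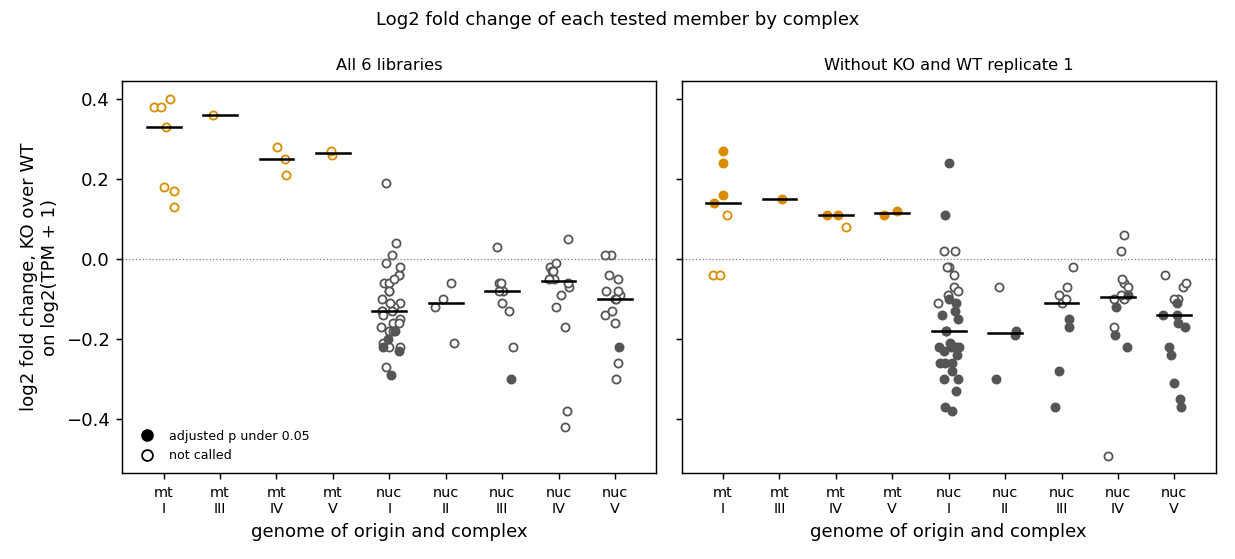
Log2 fold change of KO over WT on log2(TPM + 1) for each tested subunit gene by genome of origin (mt, mitochondrial; nuc, nuclear) and complex, with all 6 libraries (left) and without replicate 1 of both groups (right); filled points passed an adjusted p under 0.05 and black lines are medians. Mitochondrial points lie above 0 on the left, where none is called, and the nuclear medians of the 5 complexes lie between -0.06 and -0.13.

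The 7 calls depended on the libraries. All 7 genes kept a negative log2 fold change under every alternative. All 7 were called again without KO replicate 1 or without WT replicate 1, and none without KO replicate 2, KO replicate 3, WT replicate 2 or WT replicate 3, where limma called at most 106 genes higher and 3 lower over the whole table. Without KO replicate 1, 19 nuclear members were called lower and 1 higher, against 11.9% and 15.2% of all tested genes. The share among genes of at least 100 TPM, where most nuclear members lie, was not taken for that fit. Without WT replicate 1, 29 of 79 nuclear members were called lower (17 in complex I, 3 in complex II, 1 in complex III, 7 in complex V and Atp5sl), against 14.2% of all tested genes and 28.8% of tested genes of at least 100 TPM. Without replicate 1 of both groups the count was 47 lower and 2 higher (Ndufb3 and Ndufa1), against 27.3% of all tested genes called lower and 44.9% of those of at least 100 TPM. By complex the 47 were 24 of 35 in complex I, 3 of 4 in complex II, 4 of 9 in complex III, 4 of 14 in complex IV and 10 of 15 in complex V, with 2 genes, Atp5s and Atp5sl, that are not subunits despite their names.

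All KO libraries lay below all WT libraries for 39 of the 79 nuclear members, where 19.5% of all tested genes, and 702 of the 2054 of 100 TPM or more, showed this. By complex these were 18 of 35 in complex I, 2 of 4 in complex II, 5 of 9 in complex III, 5 of 14 in complex IV and 7 of 15 in complex V. The summed TPM of nuclear subunits was 29880, 28142 and 29079 in KO, against 30197, 31793 and 31247 in WT, with a ratio of means of 0.934. The ratio was 0.921 for complex I, 0.907 for complex II, 0.933 for complex III, 0.96 for complex IV and 0.928 for complex V. The groups did not overlap in complexes I, II and III, and they did in complexes IV and V. Mpo and the 5 late granulocyte markers called higher were also apart between the groups, higher in all KO libraries, as were 23.4% of all tested genes. So was Ltf of that list, at or under 0.7 TPM and not tested, while 4 others were highest in WT replicate 1. The part of these markers in the lower nuclear sums was not tested.

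Ratios of mitochondrial to nuclear transcripts within a library do not depend on the factor by which that library was scaled. In complex I the mean TPM per mitochondrial subunit was 7.86, 9.04 and 8.87 times that per nuclear subunit in KO, against 4.92, 7.46 and 7.55 times in WT. In complex III it was 6.72, 7.86 and 7.80 times in KO, against 3.88, 6.39 and 6.38 times in WT. In complex IV it was 9.48, 10.4 and 10.4 times in KO, against 6.48, 9.11 and 9.19 times in WT. That mean counts all 19 nuclear genes of complex IV, also the 5 isoforms that were not tested; over the 14 tested genes, a choice made after seeing the data, the ratio was 6.98, 7.67 and 7.69 in KO, against 4.77, 6.72 and 6.77 in WT, so complex IV is not comparable in level with the other complexes on the first count. In complex V it was 6.80, 7.82 and 7.76 times in KO, against 4.62, 6.43 and 6.39 times in WT. In all 4 complexes every KO library was above every WT library, with KO replicate 1 nearest to WT replicates 2 and 3 and WT replicate 1 lowest. Set against the mean of WT replicates 2 and 3, the KO mean of the ratio was 1.14 times as high in complex I, 1.17 in complex III, 1.10 in complex IV and 1.16 in complex V. These are sums over members and carry no test.

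**Figure D5:**
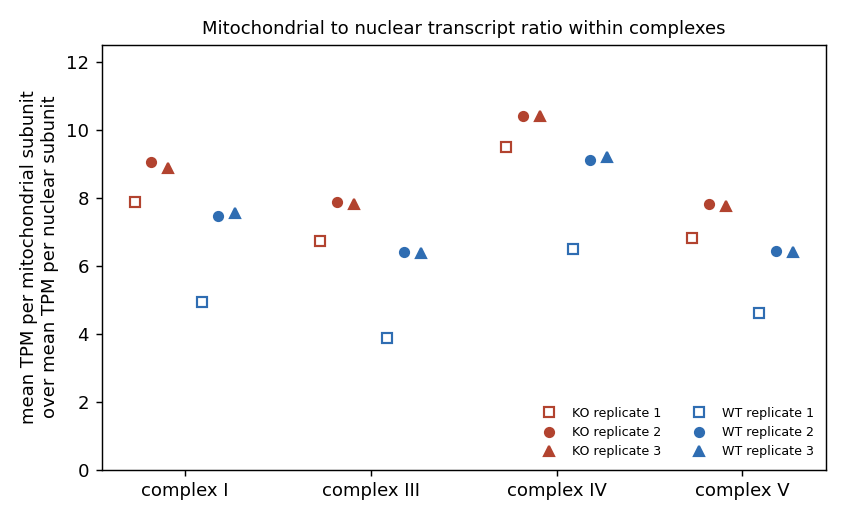
Mean TPM per mitochondrially encoded subunit divided by mean TPM per nuclear encoded subunit (linear axis from 0) in complexes I, III, IV (over all 19 nuclear genes) and V, with KO (red) left of WT (blue) and replicate 1 as open squares. In each complex the 3 KO points lie above the 3 WT points, and WT replicate 1 lies lowest, at 4.92 in complex I.

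The promoters of the nuclear members were searched for letters bound by factors known for mitochondrial genes: GCGCANGCG for NRF1, CCGGAAG for GABP and other ETS factors, and AAGATGGCG for YY1, on both strands, in 250 bases before and 50 after each annotated start (RefSeq, GRCm38.p6). An entry was found for 69 of the 85 nuclear members. The NRF1 letters were in 29.0% of these, against 15.1% of tested genes with an entry and 7.03% of all genes with one. The ETS letters were in 23.2%, 20.5% and 9.93%, and the YY1 letters in 11.6%, 3.72% and 1.64% of the same 3 sets. At least 1 of the 3 was in 52.2% of the nuclear members and 34.2% of the tested genes. A match is a description of the letters and says nothing of binding.

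Of the 7 called genes, 6 had an entry and 5 of these held a motif: ETS letters in Ndufb7 and Ndufs3, NRF1 letters in Ndufs5 and Atp5c1, and YY1 letters after the start in Ndufs7. Of the tested genes with an entry 34.2% held a motif, and 6 genes are too few to compare with that share. The first of the 2 annotated starts of Atp5c1 held no motif. For Ndufb7, Ndufs3, Ndufs5 and Atp5c1 (the second of its 2 annotated starts), the 120 bases before the start are shown 5′ to 3′ on the gene's strand, with the motif letters in capitals. No motif overlapped another in these genes.

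Ndufb7, chr8:83566638-83566757, plus strand: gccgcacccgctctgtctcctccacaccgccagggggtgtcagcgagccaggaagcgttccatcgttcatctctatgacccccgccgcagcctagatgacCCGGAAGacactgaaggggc

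Ndufs3, chr2:90904722-90904841, minus strand: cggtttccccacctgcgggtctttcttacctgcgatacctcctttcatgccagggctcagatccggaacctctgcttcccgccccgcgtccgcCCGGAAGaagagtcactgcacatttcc

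Ndufs5, chr4:123718187-123718306, minus strand: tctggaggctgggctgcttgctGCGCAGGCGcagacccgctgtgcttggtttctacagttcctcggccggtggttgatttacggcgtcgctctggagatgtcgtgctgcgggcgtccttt

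Atp5c1, chr2:10080433-10080552, minus strand: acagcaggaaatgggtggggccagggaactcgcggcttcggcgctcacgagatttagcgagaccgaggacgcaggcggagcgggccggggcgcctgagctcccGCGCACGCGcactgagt

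Other genes of the pathway were compared as lists, and their counts are to be read against the 6.11% of all tested genes, and 13.4% of those of 100 TPM or more, that were called lower. Of 50 tested assembly factors, which help build the complexes without staying in them, 7 were called lower and 1 higher (median log2 fold change -0.12). Ecsit, Ndufaf7 and Bcs1l, which act on complexes I and III, fell by 0.34, 0.33 and 0.28 on the log2 scale (limma adjusted p = 0.028, 0.034 and 0.035). Cmc1, an assembly factor of complex IV, rose, with 29.9, 32.0 and 30.1 TPM in KO against 26.3, 26.0 and 26.4 TPM in WT (limma adjusted p = 0.036). Of 20 tested genes for cytochrome c, coenzyme Q synthesis and other enzymes that feed ubiquinone, 3 were called lower and none higher. Dhodh, the mitochondrial enzyme of pyrimidine synthesis, averaged 26.6 ± 3.89 TPM in KO and 40.4 ± 2.88 TPM in WT (-0.59, adjusted p = 0.022). Coq7, an enzyme of coenzyme Q synthesis, and Gpd2, the mitochondrial glycerol-3-phosphate dehydrogenase, fell by 0.46 and 0.21 (adjusted p = 0.0457 and 0.0463).

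Of 19 pyruvate dehydrogenase and tricarboxylic acid cycle genes, 3 were called lower and none higher: Mdh2, malate dehydrogenase, which averaged 811 ± 31.7 TPM in KO libraries and 947 ± 11.6 TPM in WT libraries (limma adjusted p = 0.022), Suclg1, a succinyl-CoA ligase subunit (-0.24, adjusted p = 0.042) and Idh3g, an isocitrate dehydrogenase subunit (-0.23, adjusted p = 0.0484). Of 29 genes for mitochondrial DNA upkeep, transcription and RNA processing, 6 were called lower and none higher. Polrmt, the mitochondrial RNA polymerase, was at 20.6, 17.2 and 17.9 TPM in KO, against 26.2, 27.5 and 25.3 TPM in WT (-0.49, SE 0.08, adjusted p = 0.017). Its groups did not overlap, and WT replicate 1 lay between the other WT libraries. Elac2, which cuts tRNAs out of mitochondrial transcripts, and Tbrg4 fell by 0.43 and 0.36 (adjusted p = 0.028 and 0.016). Tfam, which packages mitochondrial DNA and starts its transcription, averaged 37.0 ± 1.75 TPM in KO and 41.2 ± 1.81 TPM in WT (adjusted p = 0.12).

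Of 11 tested nuclear regulators of mitochondrial genes, 2 were called lower and 1 higher. Myc, a growth-promoting transcription factor, averaged 77.2 ± 9.76 TPM in KO and 107 ± 2.36 TPM in WT (log2 fold change -0.47, limma adjusted p = 0.024), Pprc1, a relative of the coactivator PGC-1, 6.33 ± 0.351 and 8.30 ± 0.90 TPM (-0.34, adjusted p = 0.048), and Gabpb2, a GABP subunit, 11.2 ± 0.656 and 8.13 ± 0.896 TPM (0.42, adjusted p = 0.031). Of 28 genes for protein import, mitochondrial chaperones and carriers, 10 were called lower and none higher (median log2 fold change -0.21). Hspa9, the import motor chaperone, averaged 481 ± 45.0 TPM in KO and 626 ± 5.57 TPM in WT (-0.38, adjusted p = 0.021); Timm13, a chaperone between the membranes, and Tomm22, a receptor of the outer membrane, fell by 0.28 and 0.22 (adjusted p = 0.026 and 0.019). The lists' calls, like those of the subunits, changed with the libraries. Without WT replicate 1 the number called lower was 19 of 50 assembly factors, 10 of 19 cycle genes and 14 of 29 genes for mitochondrial DNA and RNA. It was 21 of 28 import genes, 5 of 20 genes for cytochrome c and ubiquinone, and 3 of 11 regulators. In the same order, 3, 0, 1, 0, 2 and 2 were called higher. In that fit 14.2% of all tested genes and 28.8% of those of 100 TPM or more were called lower, and 21.6% and 13.6% higher.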

How the data were processed

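The authors deposited TPM per gene symbol, with 1 decimal, in a file for each library; totals ran from 999924 to 999935. Per the labels, stranded poly(A) libraries were read as 100 bp pairs, at about 120 M reads each. Per the submitters' processing notes, the genome build was mm10 and the tools were featureCounts 1.6.2 for counting, STAR 2.6.1e for alignment, and cutadapt 1.9.1 and Trim Galore 0.4.2 for trimming. Annotation, strand setting and the conversion to TPM were not given in these sources. TPM keeps no depth, so the depth and counting error behind each value are unknown, and because it has a fixed total, a rise of abundant transcripts lowers the rest.

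Of 35869 genes, 13575 reached 1 TPM in 3 or more libraries and entered the test. limma 3.58.1 under R 4.3.3 fitted log2(TPM + 1) on genotype alone, modelling the variance as a trend of the mean, and two-sided p-values were adjusted by Benjamini-Hochberg over those 13575 genes; calls have an adjusted p under 0.05. No library was counted as a duplicate, since no pair of libraries shared the exact TPM of more than 8.48% of tested genes. The members and gene lists were chosen with earlier results of these data known. Named genes are all mitochondrial mRNAs, the Sdh genes, the called nuclear members or those of smallest p by complex, isoform sets, members with WT replicate 1 more than 1.5-fold off, and up to 3 called genes per list and direction; Ndufa1, Ndufb3, Ndufs8, Atp5b, Atp5s, Atp5sl, Lrpprc and Tfam, and the marker genes among their lists, were picked after their values were seen. Of the 85 nuclear members, 66 promoters matched by symbol and 3 by an older symbol. Alternatives were other pseudocounts, filters and scalings, no variance trend, each library left out, both replicates 1 left out, and a replicate block.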

Additional observations from a re-analysis of the deposited data

How the results depend on the processing

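The number of nuclear members called lower was 7 with all libraries. It was 13 with median-of-ratios scaling, 3 without the mean-variance trend, 0 with the replicate block and 47 without KO and WT replicate 1 together, and from 0 to 29 when 1 library was left out. The whole table moved too. Over all 13575 tested genes, 830 were called lower with all libraries and 1139 with median-of-ratios scaling. It was 579 without the trend, 33 with the block, 3710 without both replicates 1, and from 0 to 1923 when 1 library was left out. The number of nuclear members called higher was 1 without the filter on low values (Cox4i2), 2 without KO and WT replicate 1 together, and from 0 to 1 when 1 library was left out. Over the whole table, 2730 of 22884 genes were called higher without that filter and 3859 of 13575 without both replicates 1. With 1 library left out it was from 0 to 2927. Mitochondrial members called higher numbered 9 without KO and WT replicate 1 together. The median log2 fold change of nuclear members was -0.15 in that fit and between -0.13 and -0.09 when 1 library was left out. Chaf1b ranged from -1.72 to -1.57 when 1 library was left out and missed the threshold without KO replicate 3 (-1.57, limma adjusted p = 0.07).

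Signs that turned belonged to uncalled genes. Leaving out 1 library, ND1 ranged from -0.06 to 0.23, ND2 from -0.06 to 0.31, Cox6b1 from -0.06 to 0, Cox7a2l from -0.07 to 0.06 and Ndufa4 from -0.12 to 0.03. Without KO and WT replicate 1 together ND1 and ND2 were at -0.04 and Cox7a2l at 0.06. Quantile normalization gave 0.02 for Cox7a2l and 0.01 for Cox7b, and moved the median of all genes to -0.07. Rescaling without the mitochondrial mRNAs left 5 nuclear members called, where 739 of 13562 genes were called lower. The causes were not tested. The labels do not say which culture gave each library, so whether replicate numbers pair the samples is unknown. Deviations of same-numbered KO and WT libraries correlated at -0.199, -0.145 and -0.164 over genes. Those of differently numbered libraries correlated at -0.206 to 0.232. With 3 libraries a group such values cannot decide on pairing, and the replicate block is given only as an alternative. Depth limits cannot be stated from TPM.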
